A study of Mus musculus with 54 samples.

Results

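The genes described here are 7 components and antagonists of Nodal signalling: the ligands Nodal and Gdf3, the co-receptor Tdgf1 (Cripto), the extracellular antagonists Lefty1, Lefty2 and Cer1, and the transcription factor Foxh1. They were chosen by name, as the probe sets whose platform annotation gives the gene's symbol and no other. They are 7 of the 14104 genes that the deposited table measured by such a probe set. Where a gene had more than 1 probe set, the one with the highest mean over all 54 arrays stands for it. The study asked what loss of Mageb16, a gene active in undifferentiated embryonic stem cells (ESCs), does to differentiation. RNA of murine CGR8 ESCs, a male line of the 129 strain, was hybridised to Affymetrix Mouse430 2.0 arrays. KD cells carried an shRNA plasmid against Mageb16, SCR cells a plasmid with a scrambled shRNA that targets no gene, and WT cells no plasmid. The KD and SCR cells had been selected with puromycin as stable polyclonal lines. Each line was measured undifferentiated (day 0) and as embryoid bodies (EBs) formed in hanging drops, at days 2, 4, 12, 15 and 22, with 3 arrays in each of the 18 groups. Since 1 polyclonal line stands for each construct, what the shRNA does and what sets that line apart cannot be told apart. The labels do not say that the 3 arrays of a group came from separate cultures, so the p-values below measure only the spread between these arrays.

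Nodal is a secreted ligand of the TGF-beta family that binds activin receptors together with a co-receptor of the EGF-CFC family such as Tdgf1. The receptors phosphorylate Smad2 and Smad3, which enter the nucleus with Smad4 and bind target genes with partners such as Foxh1. Nodal, Lefty1 and Lefty2 are themselves targets of the pathway, so that it drives its own ligand and its own secreted inhibitors. In the mouse embryo the pathway forms the primitive streak, mesendoderm and the left-right axis, and cells of the early epiblast and ESCs express several of its members.

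RefSeq promoter sequences matched 3 of the 7 genes (Nodal, Tdgf1 and Cer1), and the 250 bases before the annotated start of each are shown because Nodal and Tdgf1 were lower and Cer1 was higher in 4-day KD EBs than in 4-day SCR EBs. The windows are chr10:61417722-61417971 on the plus strand for Nodal, chr9:110946159-110946408 on the minus strand for Tdgf1 and chr4:82885152-82885401 on the minus strand for Cer1, all in build GRCm38.p6. Each is written 5′ to 3′ on the strand of its gene, and the capitals mark matches to a searched motif.
Nodal: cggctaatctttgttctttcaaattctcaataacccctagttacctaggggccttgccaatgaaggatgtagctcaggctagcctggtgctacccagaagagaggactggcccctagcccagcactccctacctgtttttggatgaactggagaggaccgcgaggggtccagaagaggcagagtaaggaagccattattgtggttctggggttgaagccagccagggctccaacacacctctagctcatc
Tdgf1: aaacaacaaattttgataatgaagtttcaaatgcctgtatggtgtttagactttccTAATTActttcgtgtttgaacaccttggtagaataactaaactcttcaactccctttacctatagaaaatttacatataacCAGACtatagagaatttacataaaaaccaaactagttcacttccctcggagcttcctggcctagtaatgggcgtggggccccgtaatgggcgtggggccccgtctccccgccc
Cer1: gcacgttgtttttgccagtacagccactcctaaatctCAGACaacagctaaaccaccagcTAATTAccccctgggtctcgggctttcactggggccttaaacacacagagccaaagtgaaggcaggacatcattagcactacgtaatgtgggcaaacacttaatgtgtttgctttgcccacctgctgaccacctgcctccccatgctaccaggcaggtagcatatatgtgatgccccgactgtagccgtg

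Both strands of these windows were searched for 5 short motifs. The Smad element CAGAC occurred once in Tdgf1, 113 bases before the start, and once in Cer1, 213 bases before it. Of all 32851 promoters of this length, 42.2% hold it. The homeodomain core TAATTA, which reads the same on both strands, occurred once in Tdgf1 (194 bases before the start) and once in Cer1 (190 bases before it), and 4.84% of all promoters hold it. The Foxh1 elements AATACACA and AATCCACA, held by 0.895% and 0.718% of all promoters, and TATAAA, held by 12.4%, occurred in none of the 3 windows. A match describes the letters and is not a binding site, and the searched windows leave out introns and distant enhancers.

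All values are log2 signals after the authors' RMA normalization, so that a difference of 1 is 2-fold. Array medians lay between 5.94 and 6.26 and lower quartiles between 4.23 and 4.51. A difference is called here when its Benjamini-Hochberg adjusted p from limma, over all 30939 probe sets, was under 0.05 and its size at least 2-fold. Mageb16 read 7.11, 7.0 and 7.06 in KD ESCs, against 10.09, 10.09 and 10.03 in SCR ESCs and 9.99, 9.93 and 9.94 in WT ESCs. In 4-day EBs it read 4.05, 3.49 and 3.75 in KD, 9.75, 9.30 and 9.48 in SCR, and 7.16, 6.98 and 6.98 in WT, so that the untransfected line was also below SCR at that day. All 10 pluripotency markers examined were above the lower quartile at day 0 in each line, with list means of 11.27 to 11.39 in KD, 11.26 to 11.40 in SCR and 11.30 to 11.37 in WT. One feature of the table touches the errors: the third array of a group lay strictly between the other two for 28.3% to 55.2% of probe sets, depending on the group, against 16.6% to 37.1% for the first array and 22.4% to 30.1% for the second. Among the 126 sets of 3 values for the 7 genes the third array was in between in 86. Among probe sets whose 3 arrays spanned 1 or more on the log2 scale the share ran from 8.83% (22-day KD) to 96.8% (15-day SCR) and was over 90% in 5 of the 18 groups. What lies behind this was not tested. If the third array is not a sample independent of the other two, n is below 3 and the standard errors and p-values are too small. Calls that were lost when only the first and second arrays were used are named below beside the result.

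On the probe set that stands for each gene, the 7 genes did not differ between lines by as much as 2-fold in undifferentiated cells, although the other Foxh1 probe set was called lower there in KD and in SCR than in WT. At day 2 Lefty2 alone was called, as lower in KD than in SCR, and that call depended on the arrays used. Gdf3 (-0.60 ± 0.174, adjusted p = 0.00837, limma) and Lefty1 (-0.55 ± 0.180, adjusted p = 0.0201, limma) were lower in KD than in SCR by less than 2-fold, without overlap. All 7 were called between KD and SCR at day 4. Nodal, Gdf3, Tdgf1, Lefty1 and Lefty2 were then lower in KD EBs than in SCR EBs, and Cer1 and Foxh1 were higher. For all of them but Tdgf1, KD and WT EBs differed at day 4 by less than 2-fold. At days 12 to 22 KD EBs were below SCR and WT EBs for the ligands, the co-receptor and both Lefty genes. Even so, the day 22 means of all these genes in KD were above the array medians, from 6.61 for Gdf3 to 9.69 for Tdgf1. The arrays measure whole cell populations, in which fewer cells of a type and less RNA per cell cannot be told apart.

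**Figure D1:**
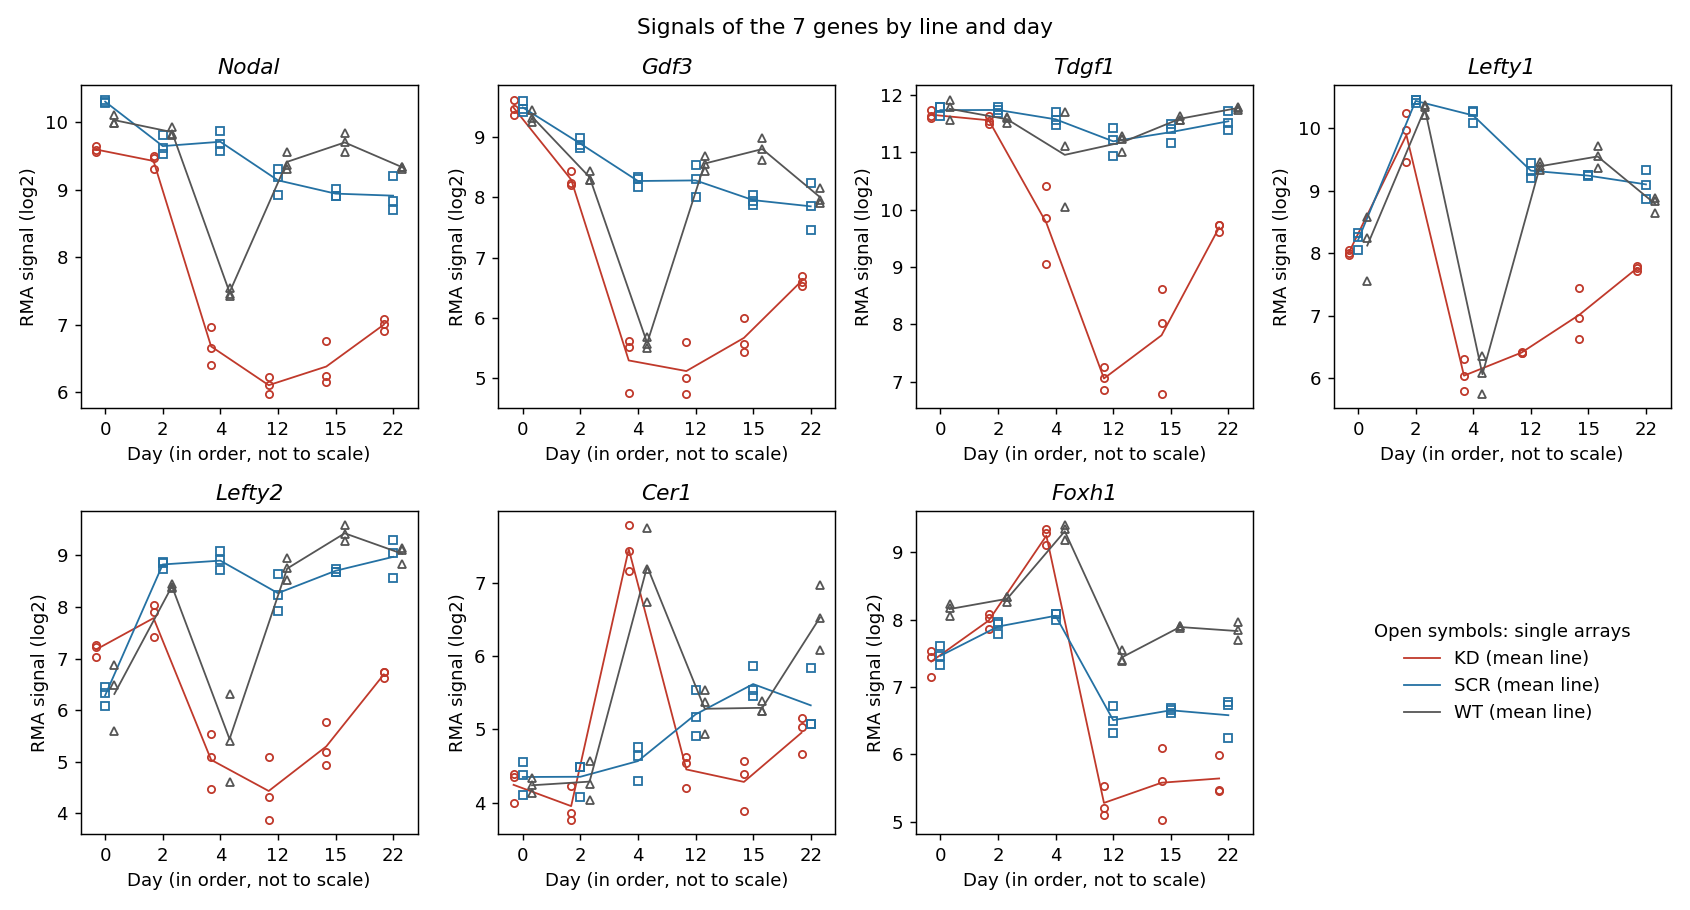
RMA signal (log2) of the 7 genes on each array (open symbols) and the group means (lines) in KD, SCR and WT at days 0, 2, 4, 12, 15 and 22, with 3 arrays a group. Nodal, Gdf3, Lefty1 and Lefty2 are low at day 4 in KD and WT and high in SCR. From day 12 their KD arrays lie below those of both other lines. Cer1 and Foxh1 have their highest day 4 arrays in KD and WT.

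Nodal, the ligand that gives the pathway its name, read 9.65, 9.58 and 9.55 in KD ESCs, against 10.28, 10.33 and 10.29 in SCR ESCs and 9.99, 10.11 and 9.98 in WT ESCs. The KD arrays were the lowest and the groups did not overlap, although the difference stayed under 2-fold (-0.71 ± 0.125 against SCR, adjusted p = 5.55e-05; the error here and below is limma's standard error). In 4-day EBs Nodal read 6.97, 6.41 and 6.66 in KD, against 9.57, 9.87 and 9.68 in SCR and 7.55, 7.46 and 7.43 in WT. KD was thus 8.15-fold below SCR (-3.03 ± 0.125, adjusted p = 4.99e-23, limma), with no overlap. Against WT the difference was -0.80 ± 0.125 (adjusted p = 5.41e-05, limma), which is under 2-fold although the arrays did not overlap.

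At day 12 Nodal read 5.98, 6.23 and 6.11 in KD EBs, against 8.92, 9.31 and 9.18 in SCR EBs and 9.56, 9.36 and 9.31 in WT EBs. Nodal in WT had risen again by then, 3.81-fold above its own day 4 (1.93 ± 0.125, adjusted p = 1.24e-16, limma), and in KD it had not. At day 22 the arrays read 7.09, 7.01 and 6.91 in KD, 9.20, 8.70 and 8.83 in SCR, and 9.34, 9.34 and 9.31 in WT. The differences of KD were then -1.91 ± 0.125 against SCR and -2.33 ± 0.125 against WT. The KD arrays stayed below those of both other lines without overlap at days 12, 15 and 22.

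Gdf3, a relative of Nodal that is made by pluripotent cells, followed the same course. It read 9.62, 9.37 and 9.47 in KD ESCs, against 9.59, 9.42 and 9.46 in SCR ESCs and 9.25, 9.44 and 9.32 in WT ESCs, and the lines overlapped. In 4-day EBs it read 5.61, 4.75 and 5.52 in KD, against 8.33, 8.17 and 8.31 in SCR and 5.68, 5.50 and 5.57 in WT. KD was 7.87-fold below SCR (-2.98 ± 0.174, adjusted p = 5.23e-18, limma), while KD and WT overlapped. At day 12 it read 4.74, 5.60 and 5.01 in KD, 8.0, 8.53 and 8.31 in SCR, and 8.69, 8.44 and 8.55 in WT. Between day 4 and day 12 Gdf3 rose 7.87-fold in WT (2.98 ± 0.174, adjusted p = 5.87e-18, limma). In KD the day 22 arrays, at 6.70, 6.53 and 6.6, lay above those of day 15, at 5.44, 5.99 and 5.57, by less than 2-fold. Those of SCR (8.23, 7.46 and 7.86) and WT (8.15, 7.91 and 7.95) at day 22 were still higher, with differences of -1.24 ± 0.174 for KD against SCR and -1.39 ± 0.174 for KD against WT.

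Tdgf1, the membrane-anchored co-receptor that Nodal needs to signal, differed from the ligands in WT. Its day 0 arrays read 11.60, 11.63 and 11.74 in KD, 11.63, 11.79 and 11.79 in SCR, and 11.56, 11.80 and 11.92 in WT. In 4-day EBs they read 10.41, 9.05 and 9.85 in KD, 11.47, 11.70 and 11.56 in SCR, and 11.71, 10.04 and 11.12 in WT. KD was 3.50-fold below SCR without overlap (-1.81 ± 0.280, adjusted p = 8.45e-07, limma). SCR and WT overlapped and their difference did not pass the test (adjusted p = 0.0711, limma). The difference of KD from WT was called (-1.19 ± 0.280, adjusted p = 0.0144, limma), yet these arrays overlapped, and the call was lost without the first WT array (-0.81), the third WT array (-1.11, adjusted p = 0.089), the second KD array (-0.83) or with the first and second arrays only (-1.15, adjusted p = 0.767), and in a fit of the compared groups alone.

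The largest loss of Tdgf1 came later. At day 12 it read 6.86, 7.25 and 7.06 in KD EBs, against 10.94, 11.42 and 11.22 in SCR EBs and 11.29, 11.0 and 11.24 in WT EBs. KD was 17.6-fold below SCR (-4.14 ± 0.280, adjusted p = 5.85e-16, limma) and 17.4-fold below WT (-4.12 ± 0.280, adjusted p = 1.01e-15, limma). The 15-day KD arrays were spread over 6.79, 8.62 and 8.02, against 11.16, 11.49 and 11.41 in SCR and 11.63, 11.56 and 11.57 in WT. By day 22 KD read 9.73, 9.73 and 9.61, above its own day 15 by 3.68-fold (1.88 ± 0.280, adjusted p = 1.17e-06, limma). The SCR arrays, at 11.72, 11.39 and 11.52, and the WT arrays, at 11.80, 11.74 and 11.78, remained higher than KD at that day.

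Lefty1 and Lefty2 encode secreted inhibitors that bind Nodal and its co-receptor. They are close paralogs, the probe sequences were not used here, and signals of one may include transcripts of the other. Lefty1 read 8.06, 8.0 and 7.97 in KD ESCs, against 8.32, 8.05 and 8.26 in SCR ESCs and 7.55, 8.58 and 8.24 in WT ESCs. At day 2 it read 10.24, 9.46 and 9.98 in KD, 10.45, 10.46 and 10.41 in SCR, and 10.38, 10.22 and 10.34 in WT. From day 0 to day 2 it rose in each line, 3.69-fold in KD (1.88 ± 0.180), 4.69-fold in SCR (2.23 ± 0.180) and 4.56-fold in WT (2.19 ± 0.180). In 4-day EBs the arrays read 6.30, 5.79 and 6.03 in KD, 10.08, 10.28 and 10.26 in SCR, and 6.36, 5.75 and 6.08 in WT. KD and WT overlapped there, and KD was 18-fold below SCR (-4.17 ± 0.180, adjusted p = 2.31e-22, limma). By day 12 Lefty1 read 6.42, 6.40 and 6.41 in KD, against 9.20, 9.45 and 9.32 in SCR and 9.33, 9.46 and 9.39 in WT. Lefty1 had thus returned in WT, at 10.1 times its day 4 signal (3.33 ± 0.180, adjusted p = 4.04e-19, limma). The gap narrowed by day 22, with 7.71, 7.76 and 7.80 in KD, 9.34, 8.87 and 9.10 in SCR, and 8.65, 8.88 and 8.84 in WT. The 22-day call against WT (-1.03 ± 0.180) lay close to 2-fold and was lost without the second WT array (-0.99).

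Lefty2 read 7.27, 7.03 and 7.22 in KD ESCs, against 6.08, 6.45 and 6.33 in SCR ESCs and 5.59, 6.87 and 6.48 in WT ESCs. The KD arrays were the highest, with differences under 2-fold of 0.89 ± 0.295 against SCR (adjusted p = 0.0364, limma) and 0.86 ± 0.295 against WT (adjusted p = 0.0433, limma). At day 2 the order was the opposite, with 8.03, 7.41 and 7.91 in KD, 8.88, 8.73 and 8.86 in SCR, and 8.44, 8.37 and 8.39 in WT. Lefty2 rose from day 0 to day 2 by 5.80-fold in SCR (2.54 ± 0.295) and 4.25-fold in WT (2.09 ± 0.295). The change in KD (0.61 ± 0.295) did not pass the test (adjusted p = 0.0821, limma), although its arrays did not overlap. Whether the change to day 2 differed between lines was not tested. KD against WT at day 2 did not pass the test (-0.62 ± 0.295, adjusted p = 0.266, limma). KD against SCR at day 2 was called at -1.04 ± 0.295 (adjusted p = 0.00664, limma), and the call was lost without the second KD array (-0.85, adjusted p = 0.0564) and with the first and second arrays only (-1.08, adjusted p = 0.174). In 4-day EBs Lefty2 read 5.54, 4.47 and 5.10 in KD, 8.71, 9.08 and 8.90 in SCR, and 6.31, 4.61 and 5.40 in WT. KD was 14.5-fold below SCR (-3.86 ± 0.295, adjusted p = 2.06e-14, limma) and overlapped with WT. At day 12 it read 3.88, 5.10 and 4.32 in KD, where 2 of the 3 arrays lay near the lower quartile of the arrays, against 7.92, 8.64 and 8.24 in SCR and 8.94, 8.53 and 8.76 in WT. KD was 14.3-fold below SCR and 19.8-fold below WT, sizes that are not exact at such low signals. At day 22 the KD arrays read 6.62, 6.73 and 6.73, against 9.30, 8.56 and 9.05 in SCR and 9.14, 8.84 and 9.11 in WT.

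Cer1 encodes a secreted protein that binds Nodal and BMP ligands and is made in the anterior visceral and definitive endoderm. Its signal was near the lower quartile of the arrays at day 0 in all lines, with 4.35, 3.99 and 4.39 in KD, 4.38, 4.11 and 4.56 in SCR, and 4.34, 4.13 and 4.24 in WT. In 4-day EBs it read 7.43, 7.16 and 7.78 in KD, 4.64, 4.30 and 4.76 in SCR, and 7.74, 6.74 and 7.18 in WT. KD was above SCR by 2.89 ± 0.232 (adjusted p = 8.39e-14, limma) without overlap, and KD and WT overlapped. Because the SCR signal was near background, this fold is not an exact size. At day 12 Cer1 had fallen to 4.54, 4.20 and 4.62 in KD, and read 4.91, 5.53 and 5.17 in SCR and 4.94, 5.37 and 5.53 in WT. In WT it rose again between days 15 and 22 (1.23 ± 0.232, adjusted p = 0.000153, limma), to 6.97, 6.08 and 6.52, when it read 5.03, 4.67 and 5.16 in KD and 5.07, 5.84 and 5.07 in SCR. The 22-day difference of KD from WT was -1.57 ± 0.232 (adjusted p = 1.61e-07, limma), and that of SCR from WT was -1.20 ± 0.232 (adjusted p = 5.06e-05, limma), which lost its call without the first WT array (-0.97). At day 15 KD was below SCR (-1.33 ± 0.232) and WT (-1.01 ± 0.232), and the second of these calls was lost without the first KD array (-0.81) or the third WT array (-0.97). Both day 15 calls fell short of 2-fold on the mean of the Cer1 probe sets (-0.98 against SCR and -0.81 against WT), as did the 22-day difference of SCR from WT (-0.98) and the WT rise between days 15 and 22 (0.94). On the other Cer1 probe set alone KD against SCR at day 15 was -0.63 (adjusted p = 0.0196, limma), which is 1.55-fold.

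Foxh1, the forkhead factor that recruits activated Smad2 to Nodal targets, was also higher in 4-day KD EBs. The name of its brighter probe set ends in _s_at, which marks probes that can match more than 1 transcript. In ESCs it read 7.15, 7.53 and 7.45 in KD, 7.32, 7.46 and 7.61 in SCR, and 8.06, 8.18 and 8.23 in WT. KD ESCs were thus below WT ESCs by less than 2-fold (-0.78 ± 0.157, adjusted p = 0.00036, limma), as were SCR ESCs (-0.69 ± 0.157, adjusted p = 0.00202, limma). The other Foxh1 probe set, whose name does not end in _s_at, passed 2-fold in both comparisons, at -1.11 ± 0.198 for KD against WT (adjusted p = 6.7e-05, limma) and -1.07 ± 0.198 for SCR against WT (adjusted p = 0.000142, limma), with no overlap. In 4-day EBs the brighter probe set read 9.11, 9.35 and 9.28 in KD, 8.0, 8.08 and 8.09 in SCR, and 9.35, 9.19 and 9.40 in WT. KD was 2.28-fold above SCR without overlap (1.19 ± 0.157, adjusted p = 3.29e-08, limma) and overlapped with WT. At day 12 it read 5.10, 5.20 and 5.53 in KD, 6.32, 6.71 and 6.49 in SCR, and 7.55, 7.40 and 7.38 in WT. Between days 4 and 12 it fell 15.7-fold in KD (-3.97 ± 0.157), 2.93-fold in SCR (-1.55 ± 0.157) and 3.66-fold in WT (-1.87 ± 0.157). At day 22 the 3 lines did not overlap, KD being below SCR by less than 2-fold (-0.94 ± 0.157, adjusted p = 2.56e-06, limma), at 5.99, 5.46 and 5.47 in KD, 6.77, 6.24 and 6.73 in SCR, and 7.84, 7.69 and 7.96 in WT. KD was below WT at days 12, 15 and 22 by 4.49-fold to 4.97-fold on the brighter probe set. On the other one KD was below WT by 9.74-fold, 12.9-fold and 8.48-fold, so that the size depends on the probes. The call against SCR at day 15 on the brighter probe set (-1.08 ± 0.157) was lost without the first KD array of that day (-0.80).

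Counted over the 7 genes, each on its brightest probe set, KD against SCR gave no call at day 0, when 0.478% of all probe sets were called higher and 0.449% lower. At day 2 Lefty2 alone was called, as lower (background 1.83% lower and 1.77% higher). At day 4 all 7 were called, 5 lower and 2 higher, against 4.82% of all probe sets called lower and 4.92% called higher. At day 12, 6 genes were lower and none higher, with Cer1 not called (4.43% lower and 6.66% higher). At day 15 all 7 were lower (5.04% lower and 7.56% higher), and at day 22 the ligands, Tdgf1 and both Lefty genes were lower (3.85% lower and 8.56% higher). The median difference of the 7 genes was -3.03 at day 12, beside -0.02 over all probe sets, and -1.35 at day 22, beside -0.11.

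KD against WT, which tests the knockdown line against untransfected cells, gave no call at day 0 (background 0.255% higher and 0.798% lower) or day 2 (0.0453% higher and 0.621% lower). At day 4 Tdgf1 was lower and none was higher (0.175% lower and 0.0679% higher). At day 12, 6 genes were lower and none higher (4.21% lower and 4.88% higher). All 7 were lower at day 15 (7.09% lower and 10.4% higher) and at day 22 (7.37% lower and 12.4% higher). The 6 genes at day 12 were Nodal, Gdf3, Tdgf1, Lefty1, Lefty2 and Foxh1, with median -3.30 over the 7 beside 0.03 over all probe sets.

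SCR against WT compares the control plasmid with no plasmid. No gene was called at day 0 (background 0.113% higher and 0.514% lower) or day 2 (0.64% higher and 1.29% lower). At day 4, 6 were called: Nodal, Gdf3, Lefty1 and Lefty2 were higher in SCR and Cer1 and Foxh1 were lower, against 4.54% of all probe sets higher and 4.5% lower. Nodal was 4.68-fold higher (2.23 ± 0.125), Gdf3 6.44-fold (2.69 ± 0.174), Lefty1 17.7-fold (4.14 ± 0.180) and Lefty2 11-fold (3.46 ± 0.295) in SCR. No gene was called at day 12 (1.32% higher and 2.17% lower), Foxh1 alone was lower at day 15 (3.95% higher and 2.41% lower), and Cer1 and Foxh1 were lower at day 22 (5.82% higher and 2.11% lower). The comparisons of KD with SCR and of SCR with WT share the SCR arrays, and at day 4 the SCR arrays lay outside the range of the KD and WT arrays for all of the genes but Tdgf1.

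**Figure D2:**
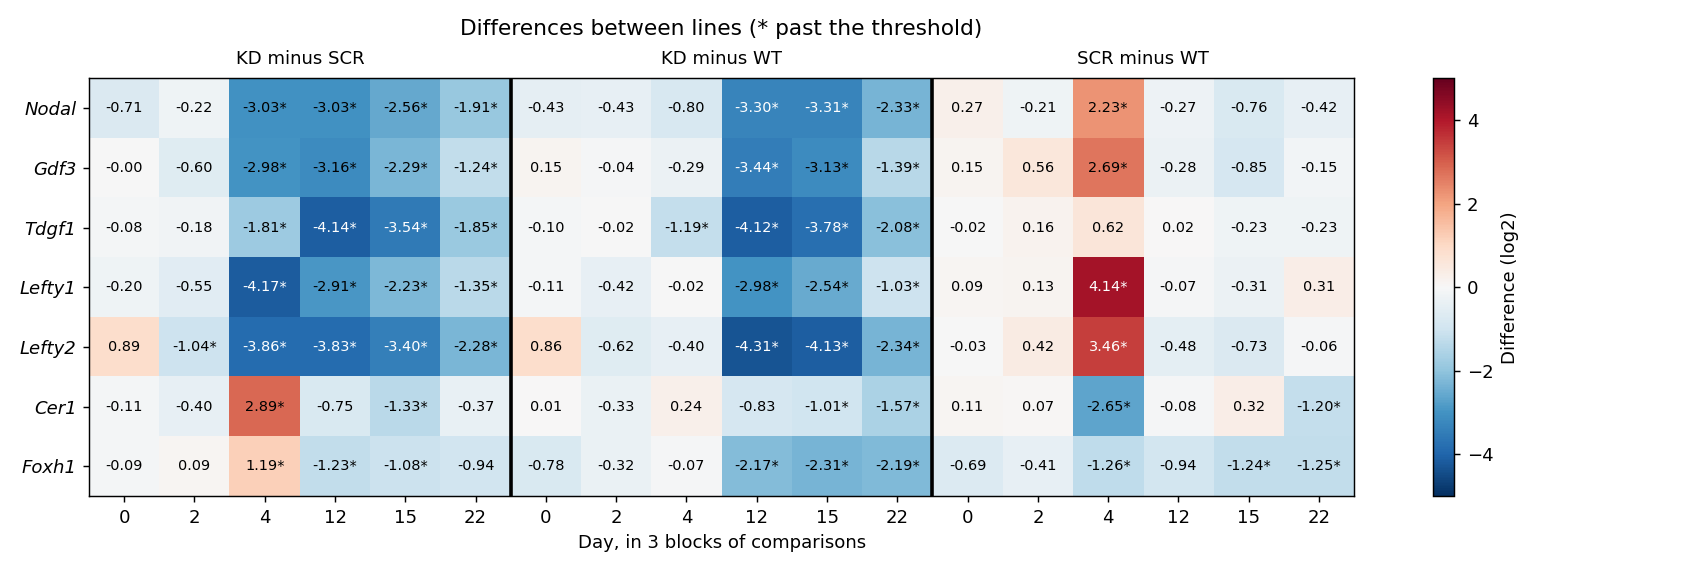
Differences in RMA signal (log2) of the 7 genes for KD minus SCR, KD minus WT and SCR minus WT at each day; red is higher in the line named first, blue is lower, and an asterisk marks an adjusted p under 0.05 (limma) with at least 2-fold. At day 4 the blocks that contain SCR carry 7 and 6 asterisks and KD minus WT carries 1, while at day 12 both blocks that contain KD carry 6 and SCR minus WT carries 0.

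Within each line the later days were also compared with day 0. In KD 2 of the 7 genes were called at day 2 (Lefty1 higher, Gdf3 lower), and 7, 6, 5 and 4 on the 4 later days, beside 11.2%, 18.3%, 28.7%, 31.5% and 34.3% of all probe sets called in either direction. In SCR the counts were 2, 3, 4, 5 and 3, beside 10.2%, 12.7%, 15.8%, 20.1% and 22.2%, and the Lefty genes made up the rises at days 2 to 12. The ligands fell in SCR too. At days 12, 15 and 22 Nodal was below its SCR day 0 signal by 2.24-fold, 2.57-fold and 2.62-fold. Gdf3 was below it by 2.31-fold, 2.90-fold and 3.12-fold, and was called lower at day 4 as well (2.33-fold). In WT they were 3, 5, 3, 3 and 3, beside 10.4%, 19.3%, 14.1%, 12.8% and 13.9%. From day 12 on WT held no call for Nodal, Tdgf1 or Foxh1 against day 0 on the probe set that stands for each gene. Nodal in WT was still below day 0 by less than 2-fold, at -0.62, -0.33 and -0.70 (each ± 0.125) at days 12, 15 and 22, without overlap. On the other Nodal probe set day 22 was called lower than day 0 in WT (-1.09 ± 0.170, adjusted p = 6.49e-07, limma). Lefty2 was above its day 0 signal at days 12, 15 and 22 in SCR (3.94-fold, 5.33-fold and 6.42-fold) and in WT (5.39-fold, 8.65-fold and 6.57-fold). In KD it was below day 0 at days 12 and 15 by 6.68-fold and 3.67-fold. By day 22 neither Lefty2 (-0.48 ± 0.295, adjusted p = 0.134, limma) nor Lefty1 (-0.25 ± 0.180, adjusted p = 0.193, limma) was called against day 0 in KD. Some of these calls were lost without 1 array: Lefty1 at day 12 in WT without the first day 0 array (0.98), Lefty1 at day 15 in SCR without the second day 0 array (0.95), Gdf3 at day 2 in WT without any of 3 arrays (-0.95 to -0.98) and Cer1 at day 12 in WT without any of 3 arrays (0.92 to 0.998). With the first and second arrays only, Gdf3 at day 2 (-0.99) and Cer1 at day 12 (0.92) in WT again fell short of 2-fold.

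The steps between neighbouring days show when the genes changed within each line. In KD all 7 genes were called between days 2 and 4 (background 12.5% in either direction), 3 between days 4 and 12 (Tdgf1, Cer1 and Foxh1 lower; 13.5%), 0 between days 12 and 15 (2.04%) and 2 between days 15 and 22 (Tdgf1 and Lefty2 higher; 5.12%). The call of Lefty2 in the last step was lost with the first and second arrays only (1.32, adjusted p = 0.071, limma). In SCR the counts were 0 between days 2 and 4 (5.76%), 1 between days 4 and 12 (Foxh1 lower; 6.52%), 0 between days 12 and 15 (1.7%) and 0 between days 15 and 22 (3.17%). In WT they were 6 between days 2 and 4 (12.7%), 6 between days 4 and 12 (9.79%), 0 between days 12 and 15 (1.74%) and 1 between days 15 and 22 (Cer1 higher; 1.76%). The 6 genes of the first WT step changed direction in the second: Nodal, Gdf3, Lefty1 and Lefty2 fell and then rose, and Cer1 and Foxh1 rose and then fell. Foxh1 between days 2 and 4 in WT was at the 2-fold limit (1.00 ± 0.157) and lost its call without the first day 4 array (0.98), the third day 4 array (0.96) or the second day 2 array (0.98), and with the first and second arrays only (0.97).

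The difference between lines in the change from day 0 was tested itself, as an interaction in limma. For the change to day 4, all 7 genes differed between KD and SCR (background 11.4%), none between KD and WT (1.19%) and 5 between SCR and WT (10.3%). Of these, Lefty2 differed by -4.75 ± 0.418 and Lefty1 by -3.97 ± 0.254 for KD against SCR, and Cer1 by 3.00 ± 0.328. For the change to the mean of days 12, 15 and 22, 5 genes differed between KD and SCR (14.3%), 7 between KD and WT (16%) and none between SCR and WT (5.07%). The 0 for KD against WT at day 4 does not show that the changes in these lines were alike. Tdgf1 for KD against SCR at day 4 lost its call with the first and second arrays only (-1.76, adjusted p = 0.0562, limma).

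For 4 of the genes, Nodal, Gdf3, Cer1 and Foxh1, the array held another probe set, which gives a check on the probes with the same RNA. Over the 18 comparisons of lines, the other probe set of Nodal had the same sign in 18 and called the same 8. That of Gdf3 had the same sign in 16 and called the same 8, that of Foxh1 had the same sign in 18 and called 12, among them all 9 of the brighter probe set. The remaining 3 were the day 0 differences of KD and of SCR from WT given above and KD against SCR at day 22 (-1.45 ± 0.198, 2.73-fold lower). That of Cer1 had the same sign in 15 and called 3 of the 6. Its day 4 arrays read 6.68, 6.0 and 6.52 in KD, 3.76, 3.65 and 3.89 in SCR, and 7.07, 5.02 and 6.23 in WT, which repeats the division seen on the brighter probe set. The other Foxh1 probe set read 3.81, 3.57 and 3.73 in 12-day KD EBs, 5.87, 6.38 and 6.09 in SCR EBs and 7.05, 6.88 and 7.03 in WT EBs.

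**Figure D3:**
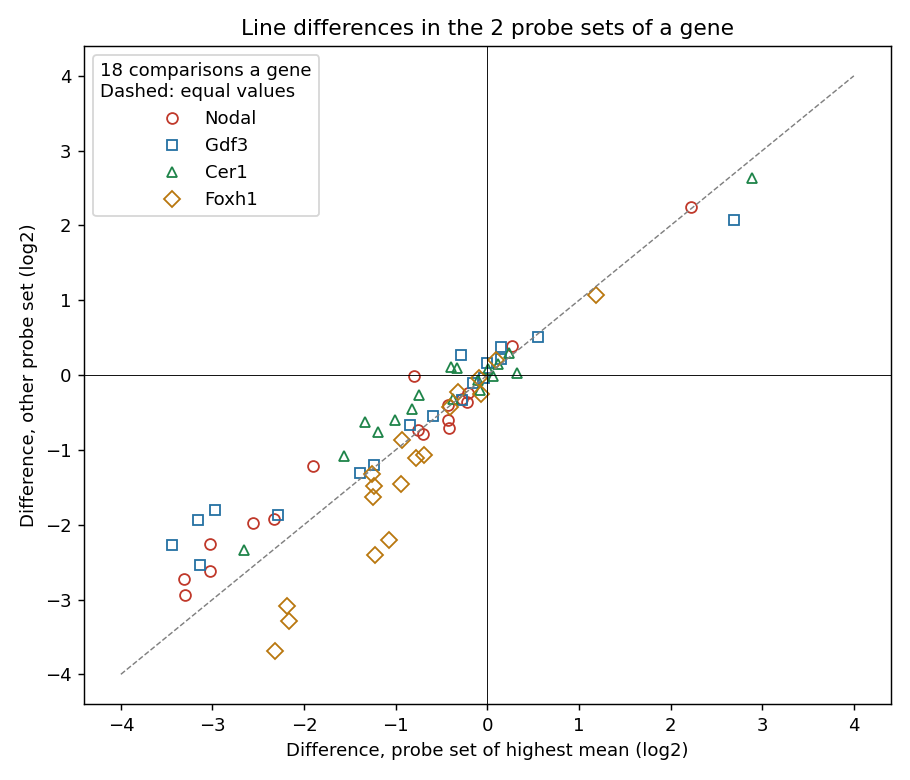
Difference between lines (log2) on the other probe set against that on the probe set of highest mean, for Nodal, Gdf3, Cer1 and Foxh1 in 18 comparisons each; the dashed line marks equal values. Large differences have the same sign on both probe sets, and the lowest Foxh1 values lie below the line.

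Other genes of the pathway were examined as a list of 40, of which 34 were analysed here. At day 4, KD against SCR, 12 of the 34 were higher (35.3%, beside 4.92% of all probe sets) and 2 lower (5.88%, beside 4.82%), with a median of 0.64 beside 0.003 over all probe sets. Targets of the pathway made up most of them, with 8 of 10 higher and 1 lower. Sox17, which specifies endoderm, was higher by 7.16 ± 0.172, Lhx1, a LIM homeobox gene of the organizer, by 4.84 ± 0.307 and Mixl1, a homeobox gene of the streak, by 3.22 ± 0.241. Outside the targets, the ligand Bmp4 was higher by 4.19 ± 0.116 and Cfc1 (Cryptic), the other EGF-CFC co-receptor, by 3.83 ± 0.197. Fgf5, a gene of the primed epiblast, was lower (-2.12 ± 0.221), as was the repressor Tgif1 (-1.16 ± 0.122). Of the 7 receptors, 1 was called (Tgfbr1, 1.01 ± 0.102), and Smad3, which carries the signal to the nucleus, was higher by 1.49 ± 0.175.

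In the same list SCR against WT at day 4 gave 2 higher (5.88%, beside 4.54%) and 12 lower (35.3%, beside 4.5%). KD against WT gave 0 higher (beside 0.0679%) and 2 lower (5.88%, beside 0.175%), Mixl1 (-1.25 ± 0.241) and Mesp1 (-1.13 ± 0.216). At day 0 no gene of the list was called for KD against SCR or KD against WT. For SCR against WT 1 was lower at day 0 (2.94%, beside 0.514%). At day 2 KD against SCR gave 5 higher (14.7%, beside 1.77%) and 0 lower, led by the activin antagonist Fst (4.50 ± 0.294). At that day SCR against WT gave 0 higher and 6 lower (17.6%, beside 1.29%). KD against WT gave 1 higher (2.94%, beside 0.0453%) and 0 lower. The mean Fst signals at day 2 were 9.49 in KD, 8.42 in WT and 4.99 in SCR. For KD against SCR, 4 genes of the list (11.8%) were higher at each of days 12, 15 and 22, beside 6.66%, 7.56% and 8.56% of all probe sets, so that these shares lay near the background. At days 12 and 15, 6 were lower (17.6%, beside 4.43% and 5.04%), and at day 22, 4 were lower (11.8%, beside 3.85%). Eomes, Lhx1 and Fgf5 were lower on all these days, and the receptors Tgfbr2 and Tgfbr3 were higher. The Tgfbr3 means in KD, SCR and WT were 10.48, 8.14 and 9.92 at day 12, and 9.70, 7.68 and 8.61 at day 15. At day 22 they were 8.97, 7.70 and 9.08, while those of Tgfbr2 were 10.53, 6.76 and 7.46. At day 22 the activin subunits Inhba (2.03 ± 0.127) and Inhbb (3.45 ± 0.119) were higher in KD EBs than in SCR EBs while Nodal and Gdf3 were lower.

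**Figure D4:**
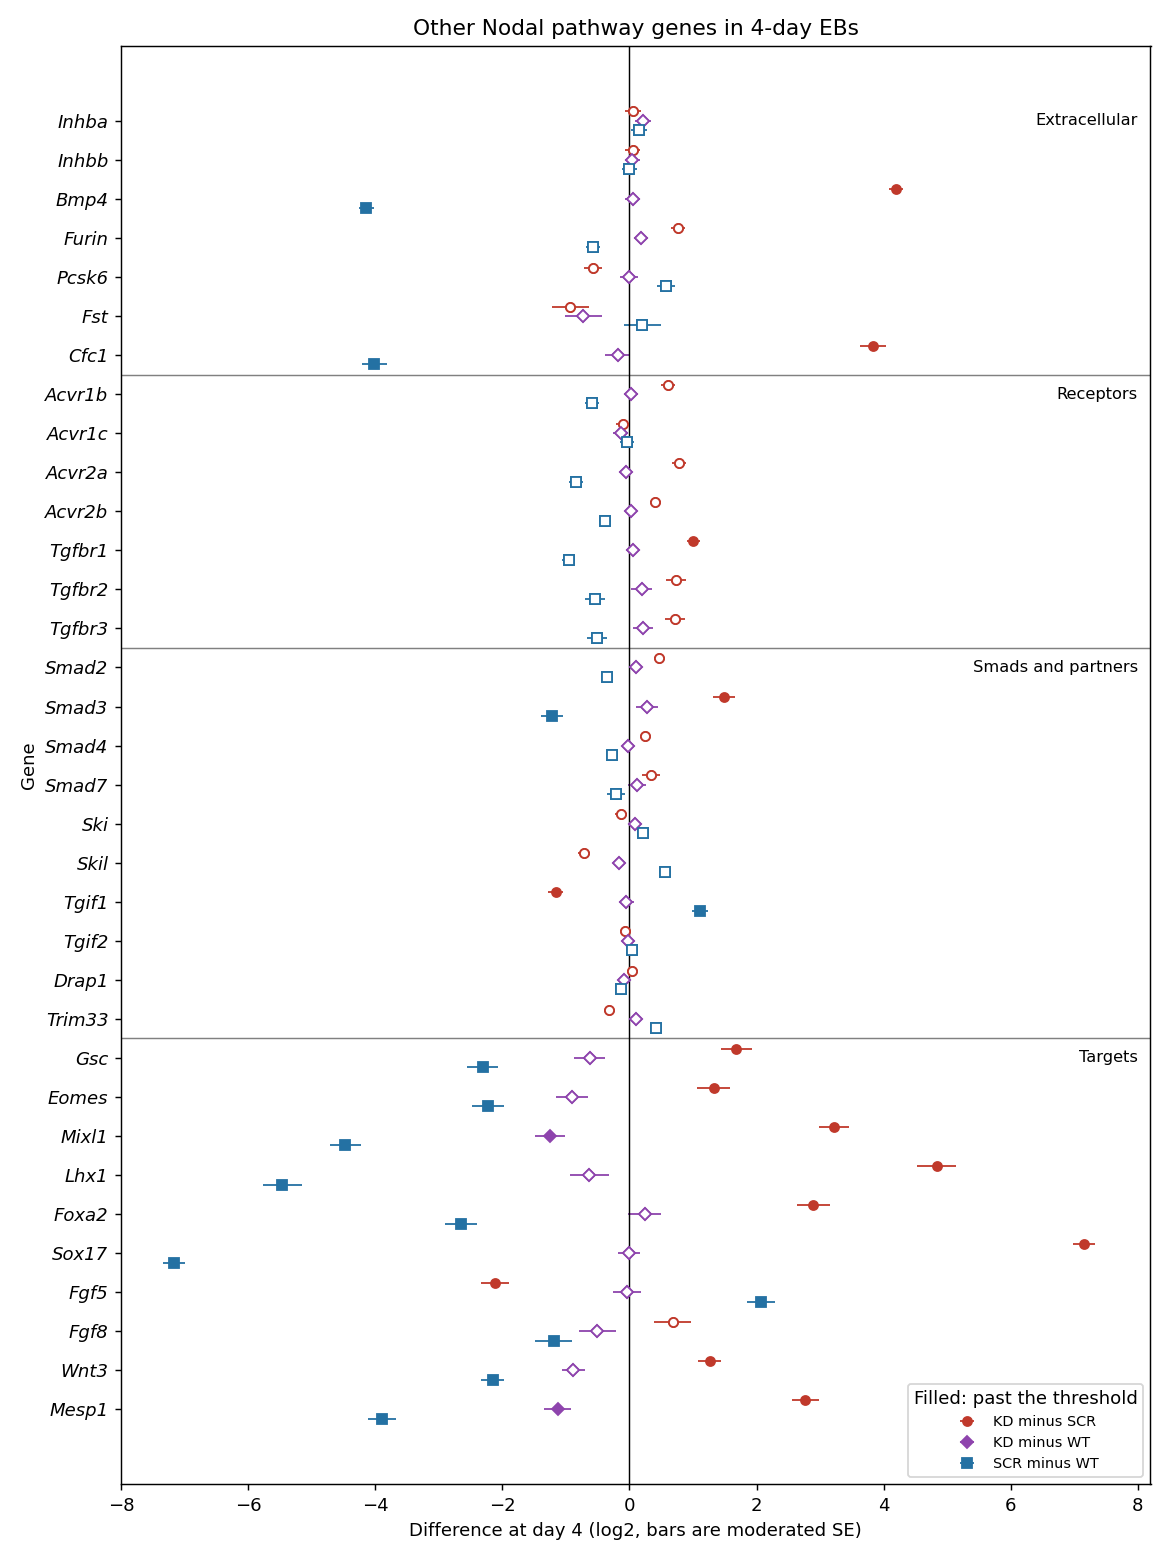
Differences at day 4 (log2, with limma's standard error) of the 34 measured pathway genes outside the 7, grouped by role, for KD minus SCR, KD minus WT and SCR minus WT; filled symbols passed the test at 2-fold or more. Most targets lie to the right for KD minus SCR and to the left for SCR minus WT, with KD minus WT nearer 0.

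Marker lists of cell types also differed between lines, but not all at the same days or in the same order as these genes. At day 4 the mean of 10 pluripotency markers was 7.38 to 8.02 in KD, 10.003 to 10.10 in SCR and 8.04 to 8.41 in WT. Of the 10, 9 were called lower in KD than in SCR and 1 higher, beside 4.82% and 4.92% of all probe sets. At day 12 the mean of the list was 7.12 to 7.73 in KD, 9.91 to 10.25 in SCR and 10.25 to 10.56 in WT. Pou5f1, a core pluripotency factor, read 7.06, 7.79 and 7.14 in 12-day KD EBs, 10.67, 10.92 and 10.66 in 12-day SCR EBs and 11.28, 10.90 and 11.11 in 12-day WT EBs. The mean of 8 definitive endoderm and streak markers was 8.18 to 8.61 in KD, 4.43 to 4.88 in SCR and 8.44 to 9.41 in WT at day 4. All 8 were called higher in KD than in SCR, beside 4.92% of all probe sets. In SCR 4 of the 8 lay under the lower quartile, and none did in KD or WT. This list shares Foxa2, Sox17, Gsc, Mixl1, Eomes, Lhx1 and Mesp1 with the pathway list.

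The 10 markers of extra-embryonic and visceral endoderm, a tissue that also makes Cer1, averaged 5.45 to 5.66 in KD, 4.32 to 4.48 in SCR and 5.42 to 5.84 in WT at day 4, when 2 of the 10 lay under the lower quartile in KD and WT and 6 in SCR. At day 22 they averaged 8.62 to 8.70 in KD, 6.57 to 6.83 in SCR and 8.49 to 8.74 in WT. The near means of KD and WT hide opposite differences. Of the 10 markers, 3 were called higher in KD than in WT at day 22 and 4 lower, beside 12.4% and 7.37% of all probe sets. Of the germ cell markers 5 of 6 were measured, and at day 12 they averaged 4.78 to 4.91 in KD, 6.52 to 6.87 in SCR and 6.24 to 6.86 in WT, with 2 of the 5 under the lower quartile in KD and none in SCR or WT. The 6 fibroblast or mesenchyme markers averaged 10.61 to 10.69 in KD, 7.42 to 7.48 in SCR and 9.65 to 9.78 in WT at day 12. The part that the mix of cell types has in the differences of the 7 genes was not tested.

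**Figure D5:**
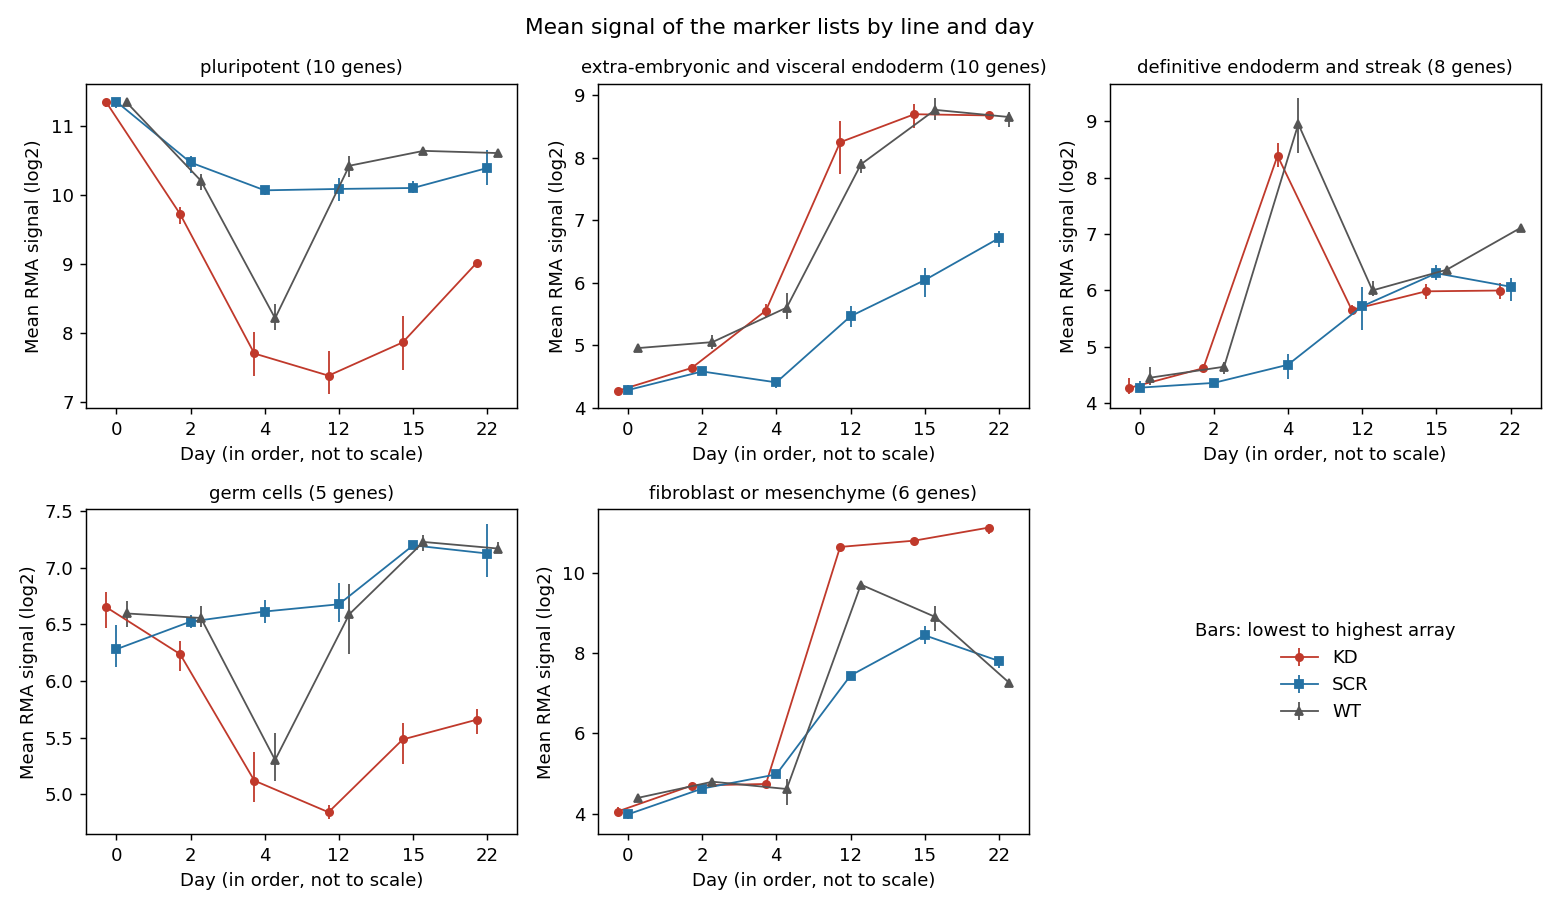
Mean RMA signal (log2) of each marker list in KD, SCR and WT by day; points are means of 3 arrays and bars run from the lowest to the highest array. The pluripotent mean dips at day 4 and returns by day 12 in WT, stays above 9.9 in SCR and stays below 9.1 from day 4 on in KD, and the definitive endoderm and streak mean peaks at day 4 in KD and WT.

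Across the 18 group means, which share 3 lines and 6 days, Nodal and Gdf3 correlated with r = 0.958, Nodal and Tdgf1 with r = 0.901, and Lefty1 and Lefty2 with r = 0.895. Cer1 correlated with Nodal at -0.34 and with Foxh1 at 0.427. Of 9485 genes whose group means spanned 2-fold or more, the nearest to Nodal were Pou5f1 (r = 0.985), Etv5 (0.983) and L1td1 (0.98). Those nearest to Gdf3 were Dppa2 (0.984), Zfp819 (0.982) and Fgf4 (0.98), and those nearest to Tdgf1 were Hat1 (0.968), Prelid2 (0.961) and Mtm1 (0.96). Enpp3 (0.956), Myb (0.943) and Slc25a33 (0.94) were nearest to Lefty1, and Gstt2 (0.948), Lrp2 (0.936) and Igfbp2 (0.932) to Lefty2. Cer1 was nearest to Tph1 (0.962), Gsc (0.948) and Lhx1 (0.946), and Foxh1 to Nemp1 (0.933), Phlda2 (0.932) and Bend4 (0.928). By rank correlation other genes came first for each of the 7, Ryr1 for Nodal and Septin10 for Cer1 among them, so the order of neighbours depends on the measure.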

How the data were processed

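RNA of the 54 samples was measured on Affymetrix Mouse430 2.0 arrays. The deposited log2 values were made by the authors with RMA (background correction, quantile normalization and probe summary), in Affymetrix Expression Console and Partek 6.6 per the submitters' processing notes; the study's methods name R Bioconductor packages instead. They were used as deposited, with no further normalization. Of the 30939 probe sets, 25596 carry 1 gene symbol, 685 several and 4658 none. No pair of arrays was identical, and an array has no depth, so that 3 arrays a group limit the precision.

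Groups of line and day came from the sample titles. One limma 3.58.1 fit in R 4.3.3 gave 18 group means on all arrays, with eBayes and Benjamini-Hochberg adjustment over all probe sets of a contrast; calls needed an adjusted p under 0.05 and at least 2-fold. Simulated data used independent normal noise, with each probe set's spread pooled over the 18 groups and its mean over all day 4 arrays. Fixed changes were added to the 4-day KD arrays, and KD against SCR was tested. Of probe sets changed by 1.5 log2, 49 of 50 were called with the right sign. Of those changed by 0.7, which is under the 2-fold limit, 2 of 50 were. Among 30739 unchanged probe sets 1 was called. The text names all 7 genes, up to 6 pathway genes with the largest called change a comparison, the 3 genes nearest to each member, Mageb16, and Pou5f1 among the markers; Tgif1, Smad3, Tgfbr1 and the late pathway genes were named after their values were seen. The genes and lists were chosen with earlier results of these data known. Alternatives were normalization, probe filter, probe set choice, arrays in the fit, replicate block, variance model, array weights and leaving out each array. Promoters were taken from RefSeq (GRCm38.p6).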

Additional observations from a re-analysis of the deposited data

Results flagged for a closer look

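In 24 tests the change of a gene from day 0 differed between 2 lines by at least 2-fold with an adjusted p under 0.05 (interaction contrasts in limma; values are log2 differences between the changes). For the change to day 4, KD against SCR gave -2.32 for Nodal, -2.97 for Gdf3, -1.73 for Tdgf1, -3.97 for Lefty1, -4.75 for Lefty2, 3.00 for Cer1 and 1.28 for Foxh1. SCR against WT at day 4 gave 1.95 for Nodal, 2.53 for Gdf3, 4.06 for Lefty1, 3.48 for Lefty2 and -2.77 for Cer1. For the change to the mean of days 12, 15 and 22, KD against SCR gave -1.79 for Nodal, -2.23 for Gdf3, -3.10 for Tdgf1, -1.96 for Lefty1 and -4.06 for Lefty2. KD against WT over the same days gave -2.55 for Nodal, -2.81 for Gdf3, -3.22 for Tdgf1, -2.07 for Lefty1, -4.45 for Lefty2, -1.14 for Cer1 and -1.44 for Foxh1. These comparisons share lines, and groups of 3 arrays are too small for the test for a single array far from the rest.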

How the results depend on the processing

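Of the 233 differences of a gene in a comparison that were followed through the alternatives, 164 were called. Those followed had an adjusted p under 0.05 in the main fit or were of KD against WT at day 4. The counts of calls (26 for KD against SCR, 21 for KD against WT, 9 for SCR against WT) stayed within 1.5 times under each alternative. With the replicate block the 3 counts were 26, 21 and 9 and no call changed. Of 54 correlations of deviations between same-numbered arrays 32 were over 0.1, and all 3 pairs were over 0.1 in 6 of the 18 comparisons of lines, so that the numbers may pair arrays in some comparisons. A replicate block within each day, chosen after seeing the data, left the counts at 26, 21 and 9 and again changed no call. Leaving out each of the 54 arrays in turn gave 1770 values, with 20 calls lost, 28 gained and 5 turned in sign, none of these among the called. The turned ones were all of KD against WT at day 4, the only comparison in which differences that did not pass the test were followed. There leaving out 1 array gave -0.18 to 0.125 for Lefty1, -0.82 to 0.032 for Lefty2, -0.003 to 0.497 for Cer1 and -0.128 to 0.002 for Foxh1. Using the mean of all probe sets of a gene lost 9 calls, Gdf3 at day 2 against day 0 in WT and 8 of Cer1, among them KD against SCR and KD against WT at day 15 and SCR against WT at day 22. Quantile normalization lost 4 (Lefty2, KD against SCR at day 2; Lefty1 in SCR at day 15 against day 0; Cer1 in WT at days 12 and 15 against day 0). Median centring lost the last 3 of these, Lefty1 in SCR at day 12 against day 0 and Foxh1 in WT at day 4 against day 2. Both scalings and the probe set mean added Foxh1 for KD against SCR at day 22. Array weights lost Lefty2 for KD against SCR at day 2 and Cer1 for SCR against WT at day 22. Restriction to the first and second arrays, chosen after seeing the data, lost 7 and gained 2. Among the brightest 60% of probe sets Cer1 was not tested. The estimation of array weights stopped before it converged. Dim signals limit Cer1 and late Lefty2 in KD, whose fold changes are not exact.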
